A study of Mus musculus with 2 samples.

Results

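The nuclear factor I (NFI) family of DNA-binding transcription factors has 4 genes in the mouse, Nfia, Nfib, Nfic and Nfix. All 4 were followed here in newborn mouse forebrain, out of 55536 genes listed in the deposited tables. They were taken by name from the GENCODE M21 annotation, and the rule that picks them uses no measured value. The samples were 2 single forebrains of newborn B6NCrl mice (age 0 days, no treatment or genetic change named, sex not collected), from pup 1 (replicate 1) and pup 3 (replicate 2). Total RNA was extracted with mirVana, 10 ng of it was primed with oligo-dT with ERCC spike-ins added, and libraries were made by Nextera tagmentation. A single donor identifier is attached to both samples, although they are described as separate pups, and they form 1 group. No comparison between groups was therefore possible, and a sign-flip test over 2 pups cannot give a p below 0.5, so all differences below are sizes without a test.

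NFI proteins bind DNA as homodimers or heterodimers at a palindromic site, through an amino-terminal domain that is closely similar in all family members. The carboxy-terminal region, which activates or represses transcription, differs more between members and is altered by alternative splicing. In the developing forebrain the family is known for the switch of radial glia from making neurons to making astrocytes, and for the midline glia that guide the corpus callosum. Mice that lack Nfia or Nfib have callosal defects and delayed glial differentiation, and Nfix is needed for the timely maturation of neural stem cells.

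The second exon of each gene's leading transcript, which encodes most of the DNA-binding and dimerisation domain, is shown because it is what the family shares. It was 532 bases long in all 4 genes, and 351 of those bases (66.0%) were identical in all 4. Between pairs the identity ran from 75.8% for Nfia and Nfic to 82.0% for Nfic and Nfix. The stretches are bases 1 to 120 of that exon, 5′ to 3′ on the strand of the gene, with capitals for the 88 bases identical in all 4. In mm10 they lie at chr4:97783082-97783201 (plus strand, Nfia), chr4:82498650-82498769 (minus strand, Nfib), chr10:81420679-81420798 (minus strand, Nfic) and chr8:84772196-84772315 (minus strand, Nfix). All sequences shown were read from the GENCODE M21 transcripts.
Nfia: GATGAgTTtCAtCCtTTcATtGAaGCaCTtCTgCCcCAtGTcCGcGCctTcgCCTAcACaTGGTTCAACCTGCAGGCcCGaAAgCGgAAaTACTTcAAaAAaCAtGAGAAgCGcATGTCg
Nfib: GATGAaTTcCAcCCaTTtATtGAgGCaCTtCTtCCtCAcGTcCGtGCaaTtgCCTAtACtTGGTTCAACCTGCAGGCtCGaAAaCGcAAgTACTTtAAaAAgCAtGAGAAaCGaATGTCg
Nfic: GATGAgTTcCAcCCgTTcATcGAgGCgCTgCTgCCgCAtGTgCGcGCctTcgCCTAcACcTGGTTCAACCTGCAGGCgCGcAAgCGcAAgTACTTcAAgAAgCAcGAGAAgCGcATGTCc
Nfix: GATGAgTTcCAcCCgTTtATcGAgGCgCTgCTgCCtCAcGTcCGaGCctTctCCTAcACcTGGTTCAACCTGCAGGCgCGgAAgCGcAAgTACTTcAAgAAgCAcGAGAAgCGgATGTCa

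Exons that only some coding transcripts keep lay downstream of the shared exon, in the carboxy-terminal coding region, and those that the isoform results turn on are shown with the exon in capitals and 12 bases of the neighbouring exons in lower case. The Nfib exons of 166 bases (chr4:82323545-82323710), 83 bases (chr4:82320474-82320556) and 89 bases (chr4:82310303-82310391), all on the minus strand, follow one another in Nfib-201 and are all absent from the leading transcript. The Nfix exons of 123 bases (chr8:84723728-84723850) and 148 bases (chr8:84716141-84716288), on the minus strand, are present in Nfix-205 and Nfix-204 and absent from Nfix-201. The Nfia exons of 66 bases (chr4:97956374-97956439) and 92 bases (chr4:98081725-98081816) are on the plus strand, and the Nfic exon of 77 bases (chr10:81403352-81403428) is on the minus strand. The next exon began with the same 12 bases after 3 of these exons, the Nfia exon of 92 bases, the Nfib exon of 89 bases and the Nfic exon of 77 bases.
Nfib, 166 bases: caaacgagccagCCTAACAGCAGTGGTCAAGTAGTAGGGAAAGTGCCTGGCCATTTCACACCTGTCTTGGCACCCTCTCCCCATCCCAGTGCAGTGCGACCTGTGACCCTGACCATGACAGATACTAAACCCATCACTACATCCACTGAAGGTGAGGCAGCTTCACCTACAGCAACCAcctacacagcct
Nfib, 83 bases: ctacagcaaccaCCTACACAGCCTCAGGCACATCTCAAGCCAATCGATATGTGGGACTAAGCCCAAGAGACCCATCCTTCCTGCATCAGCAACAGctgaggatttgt
Nfib, 89 bases: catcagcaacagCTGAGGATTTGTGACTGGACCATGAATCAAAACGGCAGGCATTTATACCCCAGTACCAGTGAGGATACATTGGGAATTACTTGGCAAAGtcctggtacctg
Nfix, 123 bases: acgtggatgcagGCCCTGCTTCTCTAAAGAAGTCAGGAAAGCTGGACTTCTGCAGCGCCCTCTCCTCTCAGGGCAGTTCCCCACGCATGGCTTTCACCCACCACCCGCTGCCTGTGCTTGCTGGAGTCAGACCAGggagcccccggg
Nfix, 148 bases: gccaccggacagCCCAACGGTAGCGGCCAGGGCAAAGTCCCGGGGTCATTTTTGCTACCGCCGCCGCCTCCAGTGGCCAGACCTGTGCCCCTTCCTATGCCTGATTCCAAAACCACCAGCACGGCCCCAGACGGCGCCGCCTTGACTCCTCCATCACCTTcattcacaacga
Nfia, 66 bases: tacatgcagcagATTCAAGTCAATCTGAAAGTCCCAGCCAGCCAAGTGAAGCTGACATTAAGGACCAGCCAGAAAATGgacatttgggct
Nfia, 92 bases: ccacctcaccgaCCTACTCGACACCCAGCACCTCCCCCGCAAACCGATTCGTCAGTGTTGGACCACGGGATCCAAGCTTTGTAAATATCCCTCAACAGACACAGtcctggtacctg
Nfic, 77 bases: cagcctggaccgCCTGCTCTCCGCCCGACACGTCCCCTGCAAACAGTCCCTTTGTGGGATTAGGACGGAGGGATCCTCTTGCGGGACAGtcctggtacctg

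The libraries were of nearly equal depth, with 40964891 expected counts in pup 1 and 41230878 in pup 3. Counting error, given below with the differences, was largest for Nfic, which had 1393 and 1040 counts. The forebrain markers Emx1, Emx2, Neurod6, Dlx1 and Dlx2 each reached 1 TPM in each pup (TPM is the deposited level per transcript length), and none of 5 midbrain and hindbrain markers did (summed TPM 1.01 in pup 1 and 0.67 in pup 3, with Hoxb4 and Hoxa4 at 0). All 4 thalamus markers, Tcf7l2, Gbx2, Lhx9 and Rora, were lower in pup 3, with a summed TPM of 293 in pup 1 and 111 in pup 3. Red cell markers went the other way, with a summed TPM of 1037 in pup 1 and 1537 in pup 3. Single markers of other lists also differed past 1.5-fold after centring: the cortical neuron gene Neurod6 (196.84 and 315.67 TPM), Emx1 (23.8 and 32.62) and the meningeal genes Dcn (42.1 and 68.33) and Lum (7.76 and 12.39) were higher in pup 3, and Emx2 (9.26 and 3.75) and the microglial gene Cx3cr1 (8.72 and 4.05) were lower. Long genes were also lower in pup 3 than short ones, as described below with the differences.

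Nfix was the most abundant family member and Nfic the least abundant in both forebrains. Nfix (chr8:84699876-84800344, minus strand) had a TPM of 310.55 in pup 1 and 276.05 in pup 3, a mean of 293 ± 24.4 (SD, n = 2), and 96.2% of the 13474 protein-coding genes whose TPM averaged at least 1 lay below it. Nfib (chr4:82290173-82705750, minus strand) had a TPM of 56.99 in pup 1 and 31.94 in pup 3, a mean of 44.5 ± 17.7, above 74.1% of those genes. Nfia (chr4:97772734-98118874, plus strand) had a TPM of 47.51 in pup 1 and 30.41 in pup 3, a mean of 39.0 ± 12.1, above 71.0% of them.
Nfic (chr10:81396186-81455635, minus strand) had a TPM of 19.1 in pup 1 and 11.8 in pup 3, a mean of 15.5 ± 5.16, above 48.6% of them. The ranges of Nfix, of Nfib and Nfia together, and of Nfic did not overlap, while those of Nfib and Nfia did. In forebrain tissue as a whole, fewer cells of a type and less RNA per cell cannot be told apart, so these are levels of the tissue and not of any cell type.

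Within each pup, where scaling between libraries plays no part, the order by TPM was Nfix, Nfib, Nfia, Nfic. Nfix had 5.45 times the TPM of Nfib in pup 1 and 8.64 times in pup 3. Nfib had 1.20 times the TPM of Nfia in pup 1 and 1.05 times in pup 3, a gap smaller than the distance between the pups for either gene. Nfia had 2.49 times the TPM of Nfic in pup 1 and 2.58 times in pup 3. Of the 4 genes' summed TPM, 434 in pup 1 and 350 in pup 3, Nfix held 71.5% and 78.8%, Nfib 13.1% and 9.12%, Nfia 10.9% and 8.68%, and Nfic 4.40% and 3.37%.

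The lead of Nfix was smaller when transcript length was handled in another way. The effective length behind its TPM was 1907 bases in pup 1, against 8463 for Nfia and 7137 for Nfib, because most of its TPM was assigned to short annotated transcripts. By expected counts, which are not per length, Nfix had 15460 in pup 1 and 15767 in pup 3, Nfib 10617 and 7037, Nfia 10496 and 7613, and Nfic 1393 and 1040. Divided by the effective length of each gene's longest transcript, a scale chosen after the values were seen, counts scaled by library total (CPM) and per kb were 70.2 and 71.1 for Nfix, 28.7 and 18.9 for Nfib, 27.2 and 19.6 for Nfia, and 5.54 and 4.11 for Nfic. On that scale Nfix remained first, at 2.44 times Nfib in pup 1 and 3.76 times in pup 3, and Nfib and Nfia changed places in pup 3 (0.97 times). The place of Nfix at the top and of Nfic at the bottom was thus the same on all 3 scales, and the order of Nfib and Nfia was not.

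**Figure D1:**
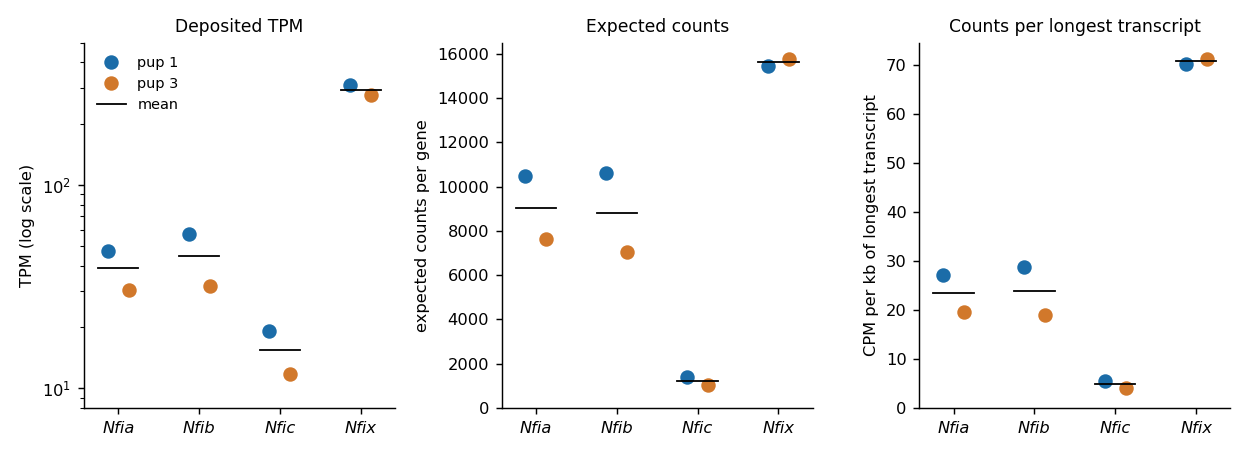
Level of the 4 NFI genes in each pup as deposited TPM (left, log axis), expected counts (middle, not per length) and CPM per kb of the effective length of the longest transcript (right). Each point is 1 pup and the line is the mean of both. Nfix was highest and Nfic lowest in all 3 panels, Nfia and Nfib overlapped, and the points of Nfia and Nfib lay lower in pup 3 while those of Nfix lay close together.

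Isoform use was described from the percent of a gene's TPM that the deposited transcript tables assign to each of 35 listed transcripts of the 4 genes. The leading transcript was the same in both pups for every gene: Nfia-202, Nfib-202, Nfic-201 and Nfix-205. Nfib use was the most concentrated, and Nfia, Nfic and Nfix each spread over several coding transcripts. Transcripts annotated as protein coding held 97.8% of Nfia TPM in pup 1 and 99.8% in pup 3, 79.1% and 85.9% for Nfib, 93.9% and 96.0% for Nfic, and 95.6% and 94.0% for Nfix.

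Nfib-202 held 68.46% of Nfib TPM in pup 1 and 79.15% in pup 3, a mean of 73.8% ± 7.56. This transcript goes from the 185-base eighth exon straight to the last exon and has a coding length of 1260 bases. Nfib-201 keeps the exons of 166, 83 and 89 bases shown above and has a coding length of 1710 bases, with 127 coding bases in the last exon against 15 in Nfib-202. Nfib-201 held 7.77% in pup 1 and 4.31% in pup 3. Over the coding Nfib transcripts that span this region, the 166-base exon was kept in 10.1% of TPM in pup 1 and 5.17% in pup 3 (leaving out those with its 139-base form), the 83-base exon in 11.6% and 7.69%, and the 89-base exon in 10.5% and 5.28%. The form without these exons, with the shorter carboxy terminus, was therefore the main Nfib messenger RNA in both forebrains.

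The remaining Nfib TPM lay mostly in retained-intron transcripts, which are not annotated as coding. Nfib-208, a form of 2 exons at the 5′ end of the gene, held 11.03% in pup 1 and 5.30% in pup 3, with 613 and 186 expected counts. Nfib-207 held 5.97% and 2.91%, with 231 and 71.1 expected counts. Their count was 3.30 and 3.25 times as high in pup 1 as in pup 3, against 1.37 times for Nfib-202, and for both the deposited TPM intervals of the pups did not overlap (5.58 to 6.65 and 1.38 to 1.92 for Nfib-208). All retained-intron transcripts of Nfib together held 18.9% of its TPM in pup 1 and 9.14% in pup 3.
Lower retained-intron shares in pup 3 were common among genes. Among 6091 protein-coding genes with a retained-intron transcript and a mean TPM of 5 or more, the median share was 5.35% in pup 1 and 3.56% in pup 3, 73.6% of the genes were lower in pup 3, and 4.27% fell by more points than Nfib. This comparison was added after the Nfib values were seen.

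Nfia was spread over 6 transcripts at 5% or more in at least 1 pup. Nfia-202, which contains every alternative exon listed, held 46.74% in pup 1 and 46.27% in pup 3, and the pups differed by less than 1 point. Nfia-205 held 15.25% and 20.99%, Nfia-204 11.41% and 10.83%, Nfia-203 10.87% and 10.84%, and Nfia-208 7.47% and 8.69%. Nfia-201 held 6.11% in pup 1 and 2.19% in pup 3 (693 and 180 expected counts), and its deposited TPM intervals overlapped, 1.5 to 6.58 and 0.0279 to 3.38.
Exon use was taken over the TPM of the coding Nfia transcripts that span each exon. The 66-base exon was kept in 82.1% of it in pup 1 and 87.0% in pup 3. For the next 2 exons the short Nfia-208, which ends before them, is left out. The 129-base exon was kept in 88.0% and 88.1%, and the 92-base exon near the 3′ end of the coding region in 83.1% and 77.0%. Each of these alternative Nfia exons was thus included in most of the messenger RNA. Coding transcripts from the upstream first exon, that of Nfia-208, made up 7.64% and 8.70%, and the rest began at the first exon shared by Nfia-201 to Nfia-205.

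Nfix was led by 3 coding transcripts. Nfix-205 held 51.44% in pup 1 and 47.31% in pup 3, Nfix-201 26.25% and 26.92%, and Nfix-204 14.63% and 15.90%. Nfix-205, at 1465 bases, is annotated with an incomplete 3′ end and has no 3′ untranslated region, Nfix-201 ends in an exon of 64 bases, and Nfix-204, at 5476 bases, ends in an exon of 3966 bases. By expected counts Nfix-204 led instead, with 6378 in pup 1 and 6942 in pup 3, against 5697 and 5249 for Nfix-205 and 2775 and 2851 for Nfix-201. The leading Nfix transcript thus depended on whether length was divided out, and a small processed transcript of 234 bases, Nfix-208, held 3.31% and 5.10% of TPM from 36.2 and 55.9 expected counts.

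The choice between Nfix first exons depended on the scale in the same way. Transcripts from the upstream first exons (those of Nfix-201, Nfix-202 and Nfix-205) held 81.8% of coding TPM in pup 1 and 79.6% in pup 3, and those from the downstream first exons (Nfix-203 and Nfix-204) 18.2% and 20.4%. By expected counts the upstream share was 55.4% and 52.1%. The 123-base exon was kept in 69.6% of coding TPM in pup 1 and 67.8% in pup 3, or 78.8% and 78.1% by counts. The 148-base exon was kept in 69.1% and 67.3%, or 78.4% and 77.7% by counts. Most Nfix messenger RNA thus kept both exons in each pup, whichever scale was used.

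Nfic had the fewest counts of the 4 genes, spread over several isoforms. Nfic-201 held 45.62% in pup 1 and 42.42% in pup 3, Nfic-204 14.47% and 24.97%, Nfic-203 14.39% and 19.04%, Nfic-205 10.29% and 9.57%, and Nfic-206 6.14% and 4.00%. The shares of Nfic-205 and Nfic-206 rested on few expected counts, 24.4 and 15.8, and 11.5 and 5.23. For Nfic-204 the deposited TPM intervals of the pups overlapped, 1.24 to 4.27 and 1.67 to 3.86. Nfic-207, which begins at the most upstream first exon, held 9.08% in pup 1 (64.9 expected counts) and was listed at 0 in pup 3, and its deposited TPM intervals overlapped (0.0479 to 3.69 in pup 1, up to 1.56 in pup 3). The 126-base exon was kept in 89.0% of coding TPM in pup 1 and 90.0% in pup 3, or 98.2% and 98.5% by counts. The 77-base exon was kept in 73.7% and 70.2%, or 66.3% and 59.3% by counts. Most Nfic messenger RNA began at the downstream first exon shared by Nfic-201, Nfic-202 and Nfic-203. It held 71.9% and 71.1% of the TPM of coding transcripts with a complete annotated start, which leaves out Nfic-205.

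**Figure D2:**
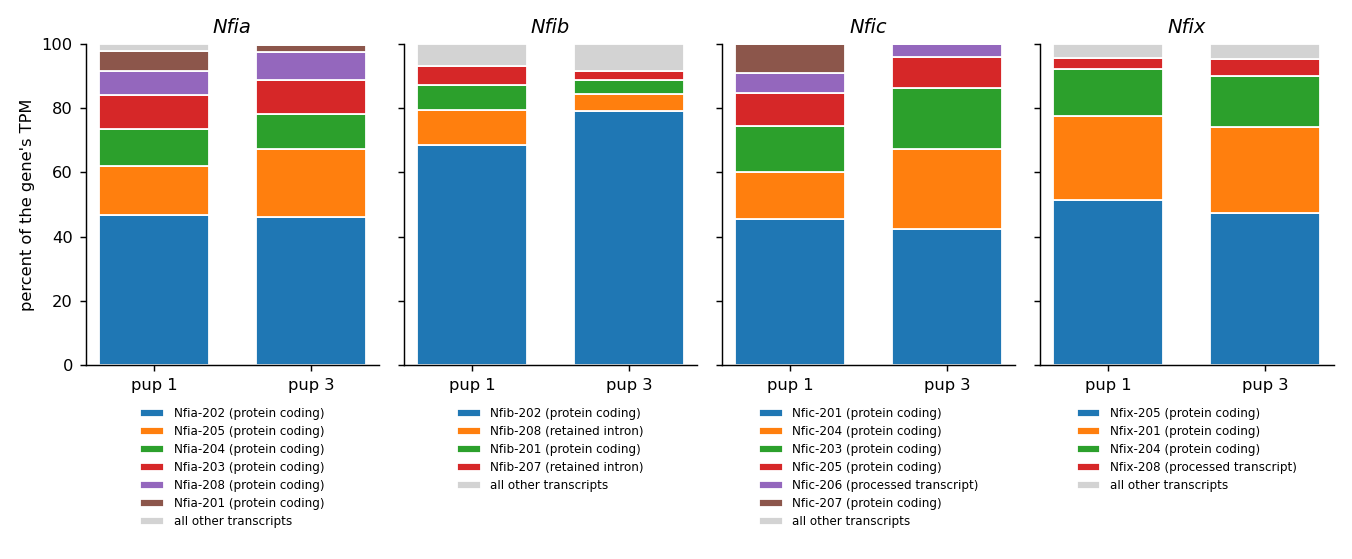
Percent of each NFI gene's TPM assigned to its transcripts in pup 1 and pup 3, for transcripts at 5% or more in either pup, with all others in grey. The leading transcript at the base of each bar was the same in both pups, and the Nfib bar shows Nfib-202 at 68.46% and 79.15% with less retained-intron signal in pup 3.

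**Figure D3:**
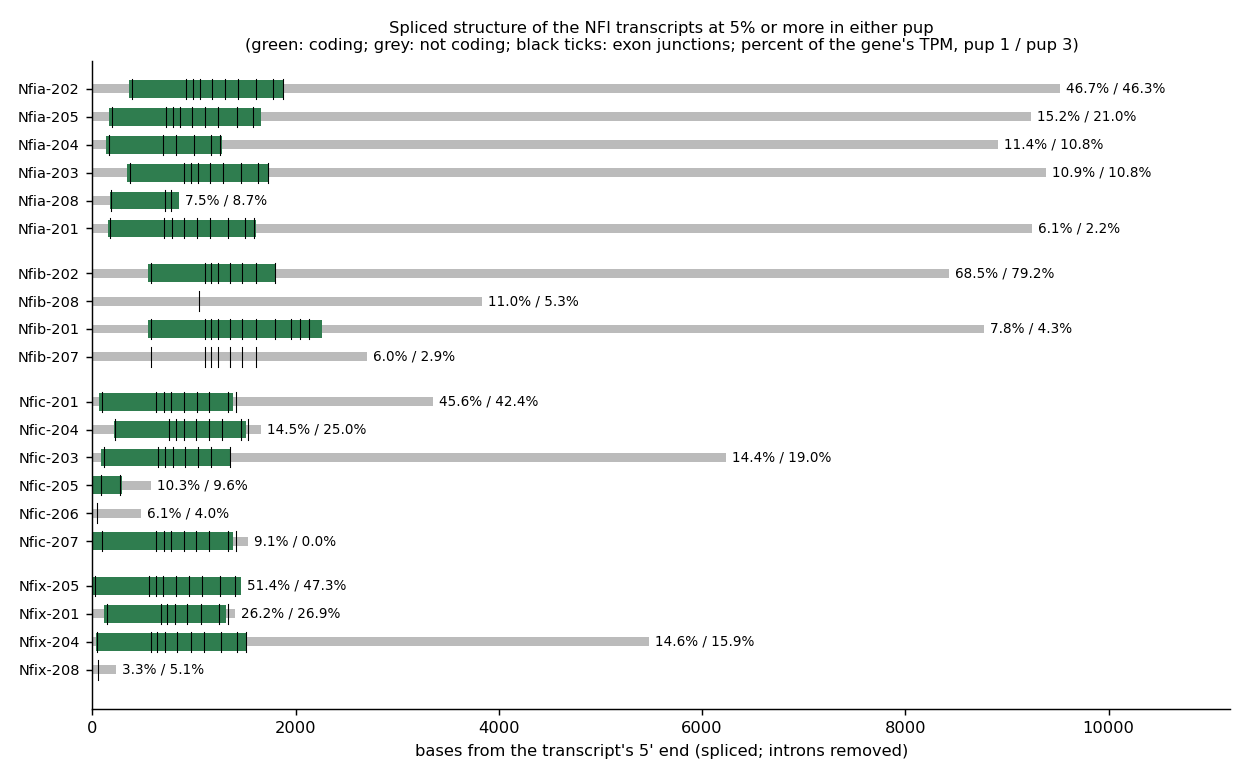
Spliced structures of the same transcripts, drawn to scale in bases from the 5′ end, with coding parts in green, other parts in grey and black ticks at exon junctions. The percent of the gene's TPM in pup 1 and pup 3 stands beside each, and Nfix-205 and Nfix-201 are seen to lack the long last exon of Nfix-204.

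Nfia, Nfib and Nfic were lower in pup 3 than in pup 1, and Nfix lay close to the median of all genes. Each difference is the log2 ratio of TPM + 1 in pup 3 over pup 1, less the median of -0.24 over the 15463 genes whose TPM averaged at least 1. It was -0.39 for Nfia (10496 and 7613 counts), -0.58 for Nfib (10617 and 7037 counts), -0.41 for Nfic (1393 and 1040 counts) and 0.07 for Nfix (15460 and 15767 counts). None of the 4 genes passed a 1.5-fold difference in either direction, which 4.90% of all genes did downward and 3.29% upward, and Nfib came nearest at 1.49-fold. Without centring, the TPM of Nfia, Nfib and Nfic was 1.56, 1.78 and 1.62 times as high in pup 1, and those 3 genes passed 1.5-fold. On that setting 2217 of the 15463 genes passed it downward and 185 upward, against 757 and 509 after centring. Of all genes, 5.08% had a lower ratio than Nfib, 10.7% a lower ratio than Nfic and 11.8% a lower ratio than Nfia. The Nfix difference changed sign with the setting (to -0.17 without centring), so no direction is given for it.

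On CPM by library total, without centring, counting error did not cover the differences of the 3 lower genes from equal levels. The log2 ratio of CPM, with exact 95% intervals for counting error only, was -0.47 (-0.52 to -0.43) for Nfia, -0.60 (-0.65 to -0.56) for Nfib, -0.43 (-0.55 to -0.31) for Nfic and 0.02 (-0.01 to 0.05) for Nfix. These intervals speak of the 2 libraries and hold no spread between animals. They also leave out the choice of scaling. With TMM scaling the values were -0.34, -0.47, -0.29 and 0.15, each outside its interval.

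Gene length moved with the difference between the pups. The median log2 ratio before centring was 0.08 in the shortest decile of protein-coding genes by effective length and -0.47 in the longest, which holds Nfia and Nfib among 1348 genes. Against the median of genes in the same length decile, the difference was -0.16 for Nfia, -0.35 for Nfib, -0.35 for Nfic and 0.03 for Nfix. Of the genes in their own decile, 26.6% had a lower ratio than Nfia, 10.5% a lower ratio than Nfib and 11.6% a lower ratio than Nfic. Nfia, Nfib and Nfic thus each lay lower than most genes of their length. The thalamus markers were lower in pup 3 as well, with a median difference of -1.03 over 4 genes, and -1.02 against genes of the same length. Astroglial markers (Aldh1l1, Aqp4, Slc1a3) had a median of -0.19 over 3, but -0.07 against genes of the same length. For the wider list of 12 astroglial genes described below, these medians were -0.16 and -0.05. The part of length, of thalamic tissue and of astroglia in the NFI differences was not tested.

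**Figure D4:**
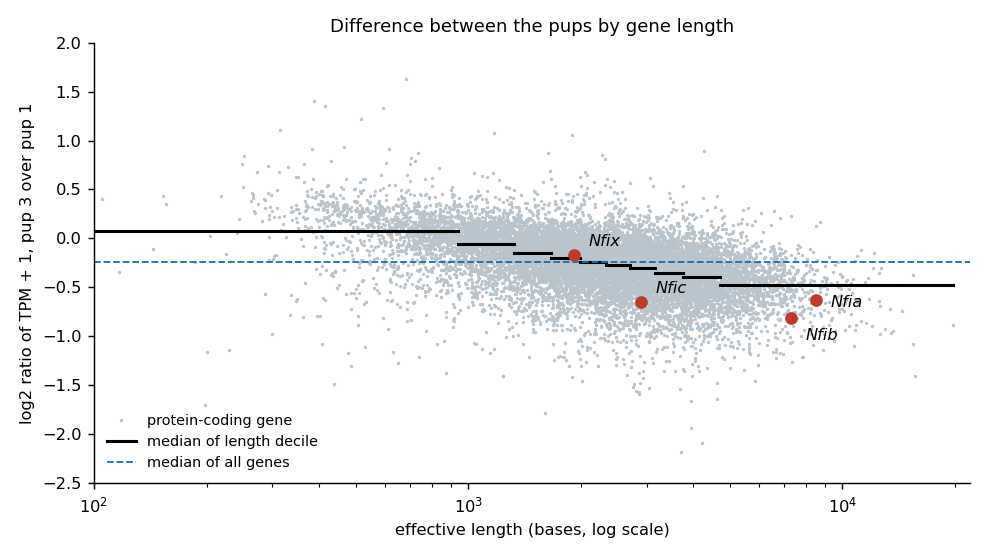
Log2 ratio of TPM + 1 in pup 3 over pup 1 against effective length (log axis) for the protein-coding genes whose TPM averaged at least 1, with length-decile medians as black bars, the all-gene median of -0.24 as a dashed line and the NFI genes in red. The medians fell from 0.08 to -0.47 with length, Nfia, Nfib and Nfic lay below the median of their length, and Nfix lay near it (the few genes beyond the axes are not drawn).

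Genes that act with the NFI family, or precede it in the glial switch, were all present. All 10 partners and switch factors reached 1 TPM in each pup, with a median of 30.8 ± 10.5 (SD over the pups, n = 2) and a median difference of -0.13. In 7 of 10 the difference was below 0, the all-gene median by construction, 2 of 10 were lower past 1.5-fold (4.90% of all genes were) and none was higher. Against genes of the same length the median difference of the 10 was -0.15. Zbtb20, a zinc-finger factor of hippocampal neurons and astrocytes, had a TPM of 75.14 in pup 1 and 23.16 in pup 3 (difference -1.42), and Nr2f2, a nuclear receptor of ventral forebrain, 76.69 and 36.89 (-0.80). Sox9, which induces Nfia at the onset of gliogenesis, had 38.5 and 23.66 (-0.44), and the Notch receptor gene Notch1 5.58 and 3.98 (-0.16). Its effector Hes5 had 99.02 and 84.97 (0.02), and the cortical progenitor factors Lhx2 and Pax6 had 37.91 and 34.62, and 15.74 and 11.58.

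Of 12 astroglial genes, several of them known NFI targets, all 12 were detected in both pups, with a median TPM of 29.6 ± 11.0 and a median difference of -0.16. In 9 of 12 the difference was below 0, the all-gene median by construction, and 1 of 12 was lower past 1.5-fold, as were 4.90% of all genes. That gene was the glutamate transporter Slc1a2, with a TPM of 15.2 in pup 1 and 6.33 in pup 3 (-0.91). The intermediate filament gene Gfap had 43.5 and 25.3 (-0.52), and the water channel Aqp4 31.28 and 18.31 (-0.50). The radial glial fatty acid binding protein Fabp7 was by far the most abundant, with 2151 and 2326 (0.35). The late markers S100b and Kcnj10 were near the detection level, with 2.96 and 2.26, and 2.36 and 1.15. The 12 genes thus spanned a wide range of levels, with Fabp7 at the top and Kcnj10 at the bottom.

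All 4 genes that NFI proteins are reported to repress in progenitors were detected, with a median TPM of 19.8 ± 3.89 and a median difference of -0.20. Of the 4, 1 was lower past 1.5-fold (4.90% of all genes were). It was Bbx, an HMG-box gene, with a TPM of 10.87 in pup 1 and 3.11 in pup 3 (-1.29). The polycomb methyltransferase gene Ezh2 had 34.25 and 29.99 (0.05), and the Notch effector Hes1 9.28 and 10.45 (0.39). Sox9, given above, belongs to both lists, as does Hes1. Of the 10 genes on a list named for neuronal maturation tied to NFI, 8 were detected, Insc (1.46 and 1.47) among them. Whether that name holds for each gene was not checked. The median TPM over all 10 was 22.6 ± 0.849, and the median difference over the 8 detected was 0.18. None of the 8 passed 1.5-fold, which 4.90% of all genes did downward and 3.29% upward. The cerebellar granule cell genes Gabra6 (0.15 and 0.03) and Grin2c (0.40 and 0.28) stayed under 1 TPM in each pup. The deep-layer cortical factors Bcl11b, Tbr1 and Fezf2 had 57.92 and 36.08, 22.09 and 22.92, and 33.62 and 33.59. Cntn2 and Cdh2, adhesion genes of young neurons, had 36.26 and 32.6, and 92.68 and 74.42.

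**Figure D5:**
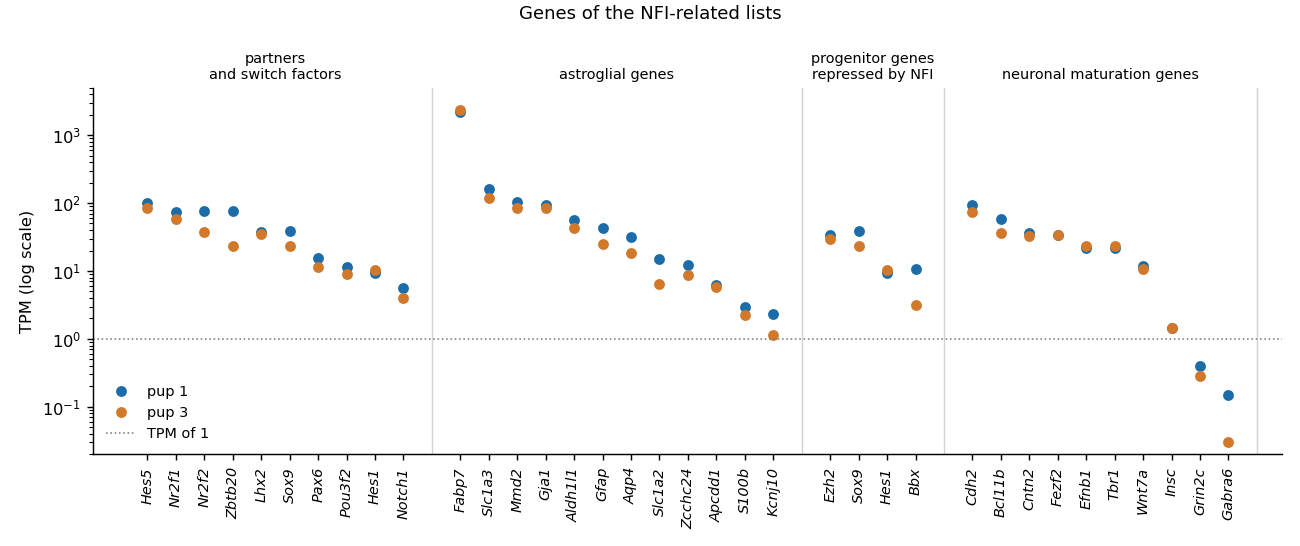
TPM of each gene of the 4 NFI-related lists in pup 1 and pup 3 on a log axis, with a dotted line at a TPM of 1 (Sox9 and Hes1 are drawn in both of their lists). Only Gabra6 and Grin2c lie below the line, and Zbtb20, Nr2f2, Slc1a2 and Bbx are those lower in pup 3 past 1.5-fold once the all-gene median ratio is subtracted, which the plotted TPM does not show.

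Genes that overlap the NFI genes could share reads with them, since no source used here states the strandedness. E130114P18Rik, on the opposite strand across the start of Nfia, had a TPM of 15.92 in pup 1 and 16.42 in pup 3, with 398 and 464 counts. Gm11266, antisense within the span of Nfib, had 8.30 and 7.51, and does not meet an Nfib exon. Opposite to Nfix, Lyl1 meets the end of the last exon of Nfix-204 and had 2.09 and 1.92, and G430095P16Rik had 0.46 and 0.81. Gm16104, opposite to Nfic, had 0.89 and 0.79, and Gm11267, within Nfib, 0.16 in pup 1 and was listed at 0 in pup 3. The others, n-R5s188, Gm11268 and Gm11269 within Nfib and Mir1191b within Nfic, were listed at 0 in both pups. The counts of overlapping genes that meet an NFI exon were small beside those of the NFI genes.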

How the data were processed

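Single forebrains of 2 newborn mice were profiled by polyA RNA-seq. The deposited tables give per gene and per transcript the expected counts, TPM, FPKM and the percent of a gene's TPM per transcript, with posterior means and interval bounds whose level is not stated. Per the labels and file headers the assembly is mm10, and the columns carry RSEM's names. The authors estimated the expected counts, TPM and FPKM before they were deposited, with an aligner and quantifier that no source used here names. The main values are from annotation release M21, and release M4 was an alternative. Gene IDs were matched to symbols, spans, exons and sequences in GENCODE M21.

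Computed here were means and SDs over the pups, shares, exon use, and log2 ratios with a pseudocount of 1 over genes whose TPM averaged at least 1 (Python 3.11.15, pandas 2.3.3, scipy 1.17.1). TMM scaling from edgeR 4.0.16 and size factors from DESeq2 1.42.0 on rounded expected counts served as alternatives only, with no test. The script was checked on simulated data. Totals were 40964891 and 41230878 expected counts, and intervals for counts cover counting error only.

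Named were the 4 genes, their transcripts at 5% or more in either pup or leading under an alternative, all overlapping genes and the genes of 4 NFI-related lists, some given only by range or count. The members and lists were chosen with earlier results of these data known. One marker gene is not reported here. Alternatives covered pseudocount, unit, scaling, filter, length, transcript class, annotation and leaving out a pup.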

Additional observations from a re-analysis of the deposited data

How the results depend on the processing

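Of the values recomputed under alternatives, 116 stayed within the spread of the pups (for differences, within counting error, and for list differences within 0.005), 65 moved further or were in another unit, and 4 changed sign. No paired analysis was possible because the labels name 1 group, so replicate numbers occur once each. Changes of sign: Nfib over Nfia became -0.048 (log2) by expected counts, and the Nfix difference became -0.0016 with a pseudocount of 5, -0.17 without centring and -0.043 without the filter on low values. Levels in FPKM were 26.0 for Nfia, 29.6 for Nfib, 10.3 for Nfic and 197 for Nfix, and in CPM per kb of the longest transcript (chosen after seeing the data) 23.4, 23.8, 4.82 and 70.7. Family shares became 25.9% (Nfia), 25.2% (Nfib) and 45.4% (Nfix) by counts and 18.9%, 19.2% and 57.9% per longest kb. In log2, Nfix over Nfib became 0.85 by counts and 1.60 per longest kb, Nfib over Nfia 0.016 per longest kb, and Nfia over Nfic 1.30 by posterior mean TPM, 1.41 in release M4, 2.89 by counts and 2.27 per longest kb. The differences of Nfia, Nfib, Nfic and Nfix were -0.34, -0.47, -0.29 and 0.15 with TMM, and -0.32, -0.45, -0.28 and 0.17 with DESeq2 size factors. Without centring, those of Nfia, Nfib and Nfic were -0.63, -0.82 and -0.65. Against genes of the same length those of Nfia, Nfib and Nfix were -0.16, -0.35 and 0.031, and without the filter those of Nfia and Nfib were -0.50 and -0.69. Past 1.5-fold lay 757 genes lower and 509 higher in the main analysis, so 59.8% of the genes past it were lower. The counts were 1325 and 727 with a pseudocount of 0.1, 276 and 192 with a pseudocount of 5, and 701 and 366 with TMM. They were 1065 and 839 with DESeq2 size factors, and 806 and 251 against genes of the same length (76.3% of those past it lower). Without centring they were 2217 and 185 (92.3% of those past it lower), with Nfia, Nfib and Nfic among the lower ones. Without the filter they were 1253 and 300 (80.7% of those past it lower), with Nfib among the lower ones. The leading isoform held 45.3% (Nfia) and 37.2% (Nfic) by posterior means, 51.7%, 84.0%, 49.5% and 35.1% (Nfia, Nfib, Nfic, Nfix) by counts, 46.4% (Nfic) among transcripts of 500 bases or more, 47.1%, 89.3% and 46.4% (Nfia, Nfib, Nfic) among coding transcripts, and 38.5% (Nfia) and 47.7% (Nfic) in release M4. The 35.1% for Nfix by counts is the share of Nfix-205, the leader by TPM. Only there did another transcript lead by that measure, Nfix-204, with 41.3% of Nfix counts in pup 1 and 44.0% in pup 3. List medians in FPKM were 20.5 (partners), 19.7 (astroglial), 13.3 (repressed) and 15.3 (neuronal), and the neuronal median was 23.7 TPM in release M4. Median list differences, in the same order, were -0.12, -0.14, -0.18 and 0.21 with a pseudocount of 0.1 and -0.12, -0.14, -0.18 and 0.16 in FPKM, and in release M4 -0.14 (partners), -0.21 (repressed) and 0.12 (neuronal). The cause of these changes was not tested. Leaving out either pup gives the other pup's values in the report, within the spread by construction, and these values are among the 116. So are the family shares and orders in FPKM, which is proportional to TPM within a library. The count of 116 is therefore no measure of stability. With 2 animals no spread within a group could be set against any difference.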

Other observations

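Promoter windows of 300 bases around annotated starts, from the RefSeq table of GRCm38.p6, were matched for 31 of 38 named genes, among them 3 of the 4 NFI genes. The full NFI palindrome, TTGGC and GCCAA separated by 5 bases, which reads the same on both strands, occurred in 12 of 32851 windows (0.0365%) and in those of 0 of the 31 genes. The shorter TTGGCA, searched on both strands and able to overlap the palindrome, occurred in 14.1% of all windows and in those of 6 of the 31 genes, Ezh2, Gabra6, Insc, Mmd2, Pou3f2 and S100b. None of the 3 NFI genes matched had either sequence in these windows. These are matches of letters and not binding sites.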
